A study of Mus musculus with 2 samples.

Results

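The genes described here encode the parts that fix basal keratinocytes to the basement membrane: integrin chains (Itga6, Itgb4, Itga3 and Itgb1), the collagen XVII gene Col17a1, the laminin chain genes Lama3 and Lamb3, the plakin linker gene Dst and the tetraspanin gene Cd151. Members were chosen by symbol, and every probe whose symbol in the deposited annotation equals one of the 9 was taken. This gave 20 probes for 8 of the 9 genes, out of 17871 genes on the array, and Lama3 was not analysed here. RNA of mouse skin keratinocytes was measured on 2 Illumina bead arrays. The array labelled VDR knockout held RNA from mice with floxed alleles of the vitamin D receptor gene Vdr (VDR fl/fl) and a Cre recombinase driven by the K14 (Krt14) promoter, and the control array held RNA from littermates labelled VDR fl/fl. Both groups were 3 months old and ate a diet low in calcium. Each array held RNA pooled from 3 mice, with cells freed from the skin with 0.25% trypsin. The Krt14 promoter is active in basal keratinocytes of epidermis and follicle, so that immune or dermal cells in a preparation should keep Vdr. Because each group is a single array, replicate error is unknown, no test was possible, and each difference below describes these 2 arrays.

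The hemidesmosome is a rivet-like junction on the lower face of the basal keratinocyte. In it, the integrin α6β4 and collagen XVII span the membrane and bind a laminin with α3 and β3 chains outside the cell, while plectin and the epithelial form of dystonin (BP230) tie them to the keratin filaments inside. The integrin α3β1 binds the same laminin at focal contacts, where it is linked to actin, and the tetraspanin CD151 sits beside both α3β1 and α6β4. Loss of any of several of these proteins gives blistering of the skin, and the same set is released and rebuilt when keratinocytes leave the basement membrane to differentiate or to close a wound.

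The promoters of members with lower signal on the array labelled VDR knockout are shown because VDR is a DNA-binding receptor whose sites are built from the core letters AGGTCA or AGTTCA. RefSeq windows of build GRCm38.p6 were available for 6 of the members, and the 250 bases before the most upstream start of Cd151, Lamb3 and Col17a1 are printed 5′ to 3′ on the strand of the gene. Capitals mark matches, on either strand, to these receptor cores, to the AP-1 site TGANTCA, to the GC box written GGGCGG or to the TATA box written TATAAA.
Cd151, chr7:141467112-141467361, plus strand: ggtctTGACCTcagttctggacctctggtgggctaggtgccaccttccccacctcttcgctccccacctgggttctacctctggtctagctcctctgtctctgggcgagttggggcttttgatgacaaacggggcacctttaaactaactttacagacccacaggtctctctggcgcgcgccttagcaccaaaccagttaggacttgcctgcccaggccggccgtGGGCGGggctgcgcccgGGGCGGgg
Lamb3, chr1:193301744-193301993, plus strand: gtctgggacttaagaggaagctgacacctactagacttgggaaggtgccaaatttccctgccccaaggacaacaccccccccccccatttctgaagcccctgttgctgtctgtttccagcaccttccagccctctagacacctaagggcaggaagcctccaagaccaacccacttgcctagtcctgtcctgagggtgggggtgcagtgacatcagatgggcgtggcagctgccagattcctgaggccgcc
Col17a1, chr19:47692043-47692292, minus strand: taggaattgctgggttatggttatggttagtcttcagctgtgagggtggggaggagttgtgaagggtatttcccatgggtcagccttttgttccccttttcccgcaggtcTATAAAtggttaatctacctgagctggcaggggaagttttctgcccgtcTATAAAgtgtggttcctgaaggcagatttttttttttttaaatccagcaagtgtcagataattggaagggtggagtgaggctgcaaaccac
Cd151 had AGGTCA on its minus strand, 245 to 240 bases before the start, and a second start of the same gene had another, 169 to 164 bases before it. AGGTCA occurred in 14% of all 32851 promoter windows of this length, so that a match is common. Lamb3 held none of the motifs searched. Col17a1 held TATAAA 140 to 135 and 91 to 86 bases before its start, a motif found in 12.4% of all windows. AGTTCA, which occurred in 11.8% of windows, and TGANTCA, in 6.75%, were in none of the 10 windows of the 6 members. GGGCGG, found in 32.7% of windows, was present for Cd151, Dst, Itga3 and Itgb1. Direct repeats of the core letters with 3 bases between, which contain the single cores (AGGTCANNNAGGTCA, AGTTCANNNAGTTCA, AGGTCANNNAGTTCA and AGTTCANNNAGGTCA), were in 0 windows of the members and in at most 2 of all windows each. These matches describe letters and show no binding.

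Vdr itself did not check the label. Its brightest probe read a normalized signal of 2928 in the pool labelled VDR knockout and 2626 in the control pool, and all 3 probes were higher, with log2 differences of 0.17 to 0.77 after background removal. Since a probe outside the deleted exon checks nothing, and probe positions were not used here, every direction rests on the label. Sex-linked transcripts also differed: in the pool labelled VDR knockout Xist, a marker of female cells, was higher by both probes (2.22-fold and 2.03-fold) and the Y-linked Ddx3y was 7.87-fold lower. The part of this difference in the results below was not tested. Detection p-values in the files did not follow the rows, so detection was judged by the rank of a probe's signal on its array, and 47.3% of probes on the array labelled VDR knockout and 46.7% on the control array counted as detected.

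All 8 measured anchorage genes were detected on both arrays, and by the brightest probe of each, 0 differed by 1.5-fold or more. Among all 9547 detected genes, 9.07% differed by at least 1.5-fold (4.96% higher and 4.11% lower) and 2.39% by at least 2-fold (1.28% higher and 1.11% lower), and in the deposited normalized values 2.25% reached 1.5-fold. Cd151 and Lamb3 were the members lowest on the array labelled VDR knockout relative to control, followed by Itgb4 and Col17a1, and Itga6 was the member highest there. Below, signals are the deposited normalized intensities on a linear scale, which keep the background, and differences are log2 values of VDR knockout minus control after the background was removed. Levels of different probes cannot be compared with each other.

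**Figure D1:**
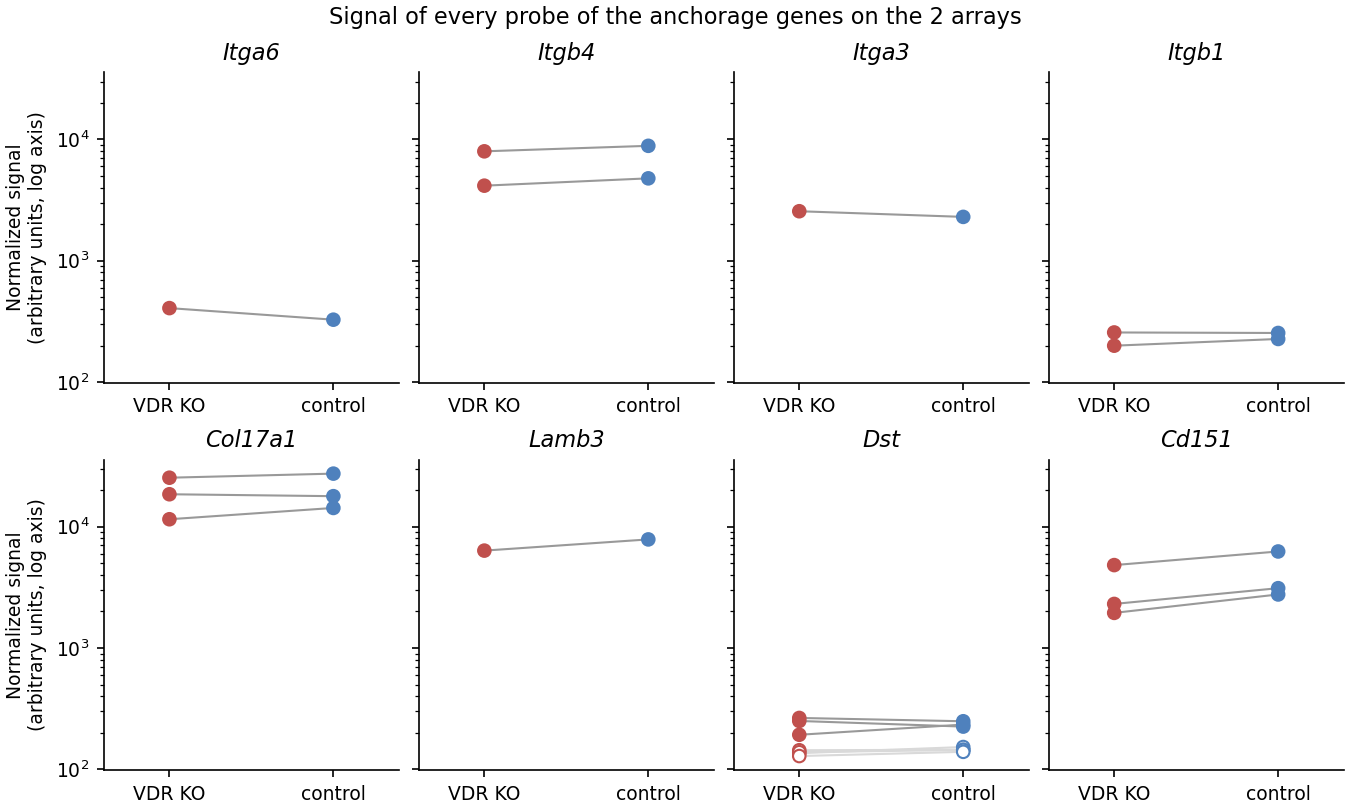
Each panel shows a gene, and each line joins the deposited normalized signal of one probe on the VDR KO array (left) and on the control array (right), on a log axis in arbitrary units. Filled points are detected on both arrays and open points on neither. All 3 probes of Cd151 and both of Itgb4 slope the same way, while the probes of Itgb1, Col17a1 and Dst do not.

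The chains of integrin α6β4, the laminin receptor of the hemidesmosome, differed in opposite directions. Itga6, the α6 chain, had a signal of 406.9 on the VDR knockout array and 326.6 on the control array by its single probe. This is a difference of 0.55 (1.47-fold), or 0.32 in the deposited normalized values, where the remaining background narrows it. Itga6 was thus higher in the knockout pool, but its probe was dim, and 14.4% of the genes in the same 20% band of signal differed by at least as much. Itgb4, the β4 chain that only pairs with α6, had 7977 on the VDR knockout array and 8854 on the control array by its brighter probe, and 4156 against 4776 by the other. Both probes of Itgb4 were lower in the knockout pool, with differences of -0.17 and -0.21, and they lay 0.04 apart. The difference of Itga6 exceeded that of Itgb4 by 0.72, or by 0.47 in the deposited normalized values.

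The chains of integrin α3β1 showed small differences. Itga3, the α3 chain, had a signal of 2559 on the VDR knockout array and 2298 on the control array, a difference of 0.16. It was slightly higher in the knockout pool, and 34.0% of the genes in the brightest 20% differed by at least as much. Itgb1, the β1 chain shared by many integrins, was read by probes close to background, with 256.3 on the VDR knockout array and 253.8 on the control array by the brighter and 199.4 against 226.5 by the other. Their differences of 0.03 and -0.44 have opposite signs, so that these probes give Itgb1 no direction. The brighter one read -0.0075 when arrays were scaled by their median.

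The transmembrane collagen and the laminin chain were bright and lower on the VDR knockout array, apart from 1 collagen probe. Lamb3, the β3 chain of the laminin, had a signal of 6348 on the VDR knockout array and 7851 on the control array, a difference of -0.32 (1.25-fold lower). Of the brightest 20% of genes, 10.3% differed by at least as much. Col17a1, the collagen XVII gene, had 25323 on the VDR knockout array and 27366 on the control array by its brightest probe (-0.15), 18499 against 17837 by the second (0.08) and 11511 against 14264 by the third (-0.32). Its probes therefore spread over 0.40, and the second probe went the other way from the rest, and read -0.0015 with median scaling. The brightest Col17a1 probe was brighter than 99.8% of all probes on the VDR knockout array and 99.9% on the control array.

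Cd151, the tetraspanin partner of both laminin-binding integrins, was lower in the knockout pool by every probe. The brightest Cd151 probe gave 4822 on the VDR knockout array and 6245 on the control array, the second 2307 against 3112 and the third 1947 against 2762. The differences were -0.39, -0.46 and -0.54 (1.31-fold, 1.38-fold and 1.45-fold lower), within 0.15 of each other. They were nearly the same in the deposited normalized values, from -0.37 to -0.50. Of the brightest 20% of genes, between 2.74% and 5.96% differed by at least as much as these probes. Relative to its integrin partners on the same arrays, Cd151 lay 0.55 below Itga3 and 0.94 below the dim Itga6 in difference. In the deposited normalized values it lay 0.53 and 0.69 below them.

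Dst, the plakin gene whose epithelial form is BP230, was barely above background. Of its 7 probes, designed on 2 of its transcript records, 4 were detected on neither array. The brightest of the others had 265.0 on the VDR knockout array and 248.9 on the control array (0.19), the second 250.3 against 224.9 (0.37) and the third 192.6 against 233.6 (-0.67). The probes disagreed in sign over a range of 1.05, so that Dst has no settled direction. Which of the products of Dst each probe reads was not analysed here.

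**Figure D2:**
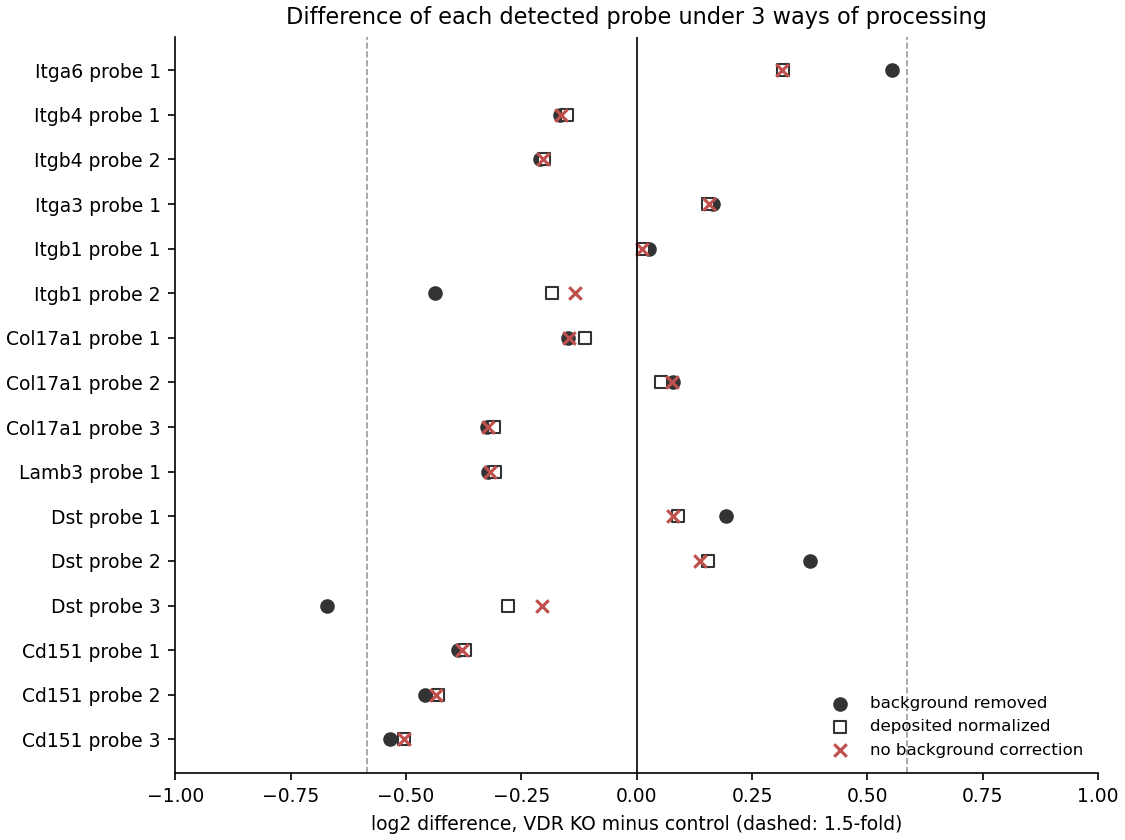
The horizontal axis gives the log2 difference, VDR KO minus control, of each of the 16 probes detected on both arrays, numbered from the brightest of each gene, and dashed lines mark 1.5-fold. Filled circles have the background removed, open squares are the deposited normalized values and crosses had no background correction. The 3 markers nearly coincide for the bright genes Itgb4, Itga3, Col17a1, Lamb3 and Cd151 and part for the dim Itga6, Itgb1 and Dst.

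How closely probes of one gene follow each other shows how far such differences can be read. Over 2097 genes with several probes detected on both arrays, a pair of probes differed by a median of 0.19 in their log2 difference. In the brightest 25% of the 3707 pairs the median gap was 0.13 and the 90th percentile 0.37, and in the dimmest 25% they were 0.29 and 0.72. The gap of Itgb4 was below the median for bright pairs, that of Cd151 lay between that median and the 90th percentile, the gap of Col17a1 was above the 90th percentile for bright pairs, and the gap of Dst was above that for dim pairs. A range over 3 probes is the widest of several pairs and so tends to be larger. This spread holds array noise and probe design, and no difference between animals.

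As a group the anchorage genes were close to the bulk of the array. By the brightest probe, 4 were lower and 4 higher in the knockout pool, with a median of -0.06, beside a median of -0.0016 over all detected genes. Of the genes detected on both arrays, 50.9% were lower. By brightness, of the 10 member probes in the brightest 20% of signal, 8 were lower and 2 higher, and of the 6 dimmer ones, 2 were lower and 4 higher. Several of these probes read one gene, so they are not independent. In the brightest 20% of all genes, 52.3% were lower, with a median of -0.01 and an SD of 0.23.

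**Figure D3:**
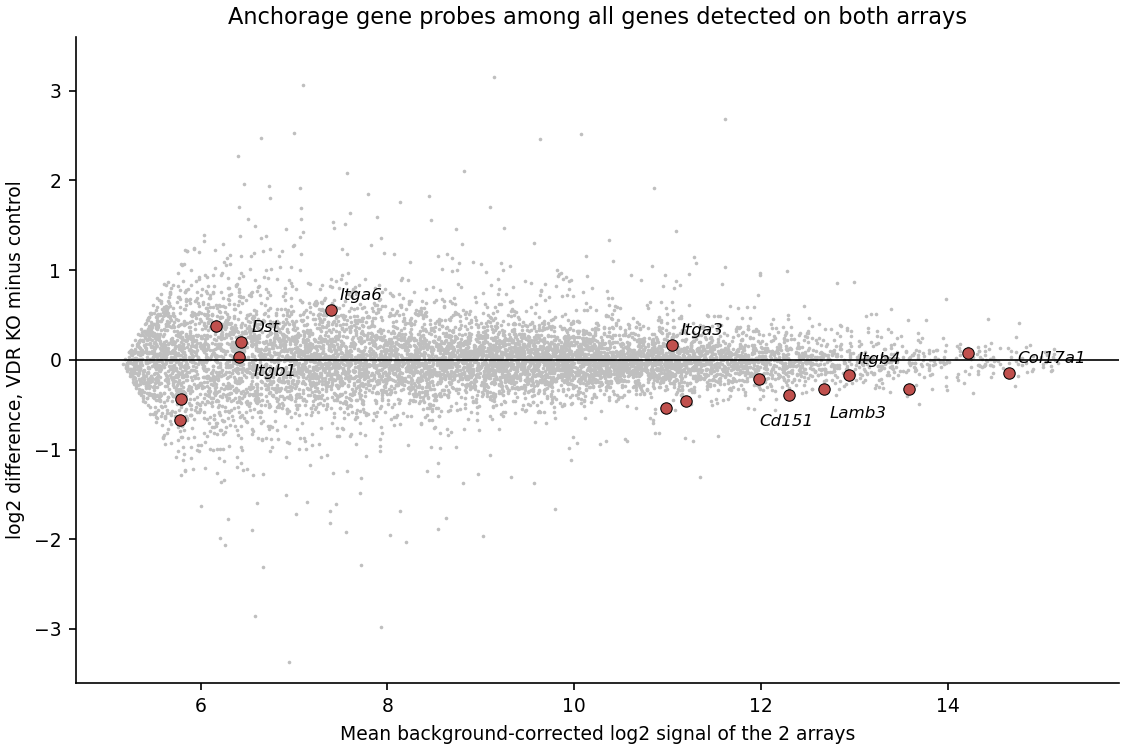
Grey points are the 8393 genes detected on both arrays, with the mean background-corrected log2 signal on the horizontal axis and the log2 difference, VDR KO minus control, on the vertical axis. Red points are the 16 detected probes of the anchorage genes, labelled at the brightest probe of each gene. The bright member probes lie mostly below 0 and all lie inside the cloud.

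Of 5 other detected genes of the hemidesmosome and the anchoring fibrils, 0 reached 1.5-fold, beside 9.07% of all detected genes. With so few genes, this count says little about the list. Of the 5, 4 were lower and 1 was higher in the knockout pool, with a median of -0.23. Plec, the plectin gene, had 11691 on the VDR knockout array and 11453 on the control array by its brightest probe (0.02). The basal keratins that plectin binds had differences of -0.03 for Krt14 and -0.28 for Krt5. Krt15, a keratin of basal and bulge cells, had -0.37, and Col7a1, the collagen of anchoring fibrils, had -0.23 and -0.19 by its 2 probes.

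Among other basement membrane genes the type IV collagen genes Col4a2 and Col4a1 had the largest differences of the list. Col4a2 had a signal of 249.9 on the VDR knockout array and 452.9 on the control array, a difference of -1.58 (3.00-fold lower, 1.81-fold in the deposited normalized values). Col4a1, whose chain joins that of Col4a2 in one molecule and whose gene is its neighbour, had 332.7 against 470.5, a difference of -0.85 (1.81-fold lower, 1.41-fold in the deposited normalized values). Both chains of the collagen network were thus lower in the knockout pool. Lama1, a laminin chain, had 740.3 on the VDR knockout array and 541.0 on the control array (0.66, or 1.58-fold higher, 1.37-fold in the deposited normalized values). The list of 15 detected genes had 1 at 1.5-fold higher, 2 lower and 12 between, with a median of -0.08. The list is short, and 9.07% of all detected genes reached 1.5-fold. Of Col4a2, Col4a1 and Lama1, only Col4a2 stayed past 1.5-fold in the deposited normalized values or without background correction. Dermal fibroblasts and endothelial cells also make type IV collagen. The fibroblast markers had 4 of 8 detected, with summed signals of 649.2 on the VDR knockout array and 946.3 on the control array. The median probe read 169.4 on the VDR knockout array and 169.5 on the control array. The fibroblast sums are thus largely background and do not compare fibroblast content. Only Dcn was detected on both arrays, and it was lower (-2.07). Col1a1, Col5a1 and Fbn1 were detected on the control array alone, which sets their direction. Col1a2, Col3a1, Lum and Pdgfra were not detected on either. The endothelial markers had 3 of 7 detected, none on both arrays. Egfl7 was detected on the control array alone, and Tek and Vwf on the VDR knockout array alone, which sets their directions. Their sums, 534.9 on the VDR knockout array and 544.4 on the control array, are mostly background and do not compare endothelial content. The part of fibroblasts and endothelial cells in the difference of Col4a1 and Col4a2 was not tested.

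The counts for other receptors, linkers and proteases stand beside the 9.07% of all detected genes that reached 1.5-fold, and each list is short. Of 8 detected basement membrane receptors, 0 reached 1.5-fold, with -0.54 for Bcam (-0.59 and so past 1.5-fold with median scaling) and -0.52 for Dag1 (-0.17 by its dimmer probe), which bind laminin, and 0.27 for Cd44, a hyaluronan receptor. Of 8 other integrin chains, 2 were at least 1.5-fold higher and 0 lower. These were Itga11, a collagen-binding chain (498.4 on the VDR knockout array and 309.2 on the control array, 2.27-fold, 1.61-fold in the deposited normalized values), and Itgb6, a chain known from wounded epithelium (1042 against 706.3, 1.67-fold, 1.47-fold in the deposited normalized values). All 3 probes of Itgb6 were higher, at 0.74, 1.54 and 0.39, and Itgb5 had -0.39. Of 9 tetraspanins and partners, 1 was at least 1.5-fold higher, the dim Igsf8 (218.0 against 178.9, 0.69), and 0 were lower. Igsf8 did not keep 1.5-fold in the deposited normalized values (0.29), without background correction (0.19) or with an offset of 50 (0.40). Cd82, a tetraspanin that like Cd151 associates with integrins, had 3563 on the VDR knockout array and 5134 on the control array (-0.55), and Tspan8 had 0.46. The other detected tetraspanins were named after their values were seen. Cd81 had -0.25, Cd9 -0.04 and Tspan14 0.24, beside -0.39 for the brightest Cd151 probe. Cd63 had -0.32, with 0.14 and -0.16 by its dimmer probes, and Tspan31 had -0.24, with 0.55 by its dimmer probe.

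Of 16 focal adhesion linkers, 1 was past 1.5-fold, and their median was -0.11. This was Fermt2, the kindlin that activates β1 integrins in many cell types, with 199.6 on the VDR knockout array and 302.4 on the control array (2.53-fold lower, 1.52-fold in the deposited normalized values and under 1.5-fold, at -0.51, without background correction). Fermt1, the kindlin of keratinocytes, named after its value was seen, had -0.27, and the linkers Actn1 and Ilk had -0.32 and -0.30, although the dimmer Ilk probe read -0.0028. Of 9 proteases known to cut laminin, collagen XVII or their neighbours, 1 was past 1.5-fold. Mmp2, a gelatinase, had 4923 on the VDR knockout array and 2510 on the control array (2.05-fold higher). Adam9 and Mmp3 were dim. Adam9 had 0.43 (0.21 in the deposited normalized values), and the brightest Mmp3 probe had -0.51 (-0.24 in the deposited normalized values). The other Mmp3 probes had -0.54 and -0.78, the last past 1.5-fold.

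**Figure D4:**
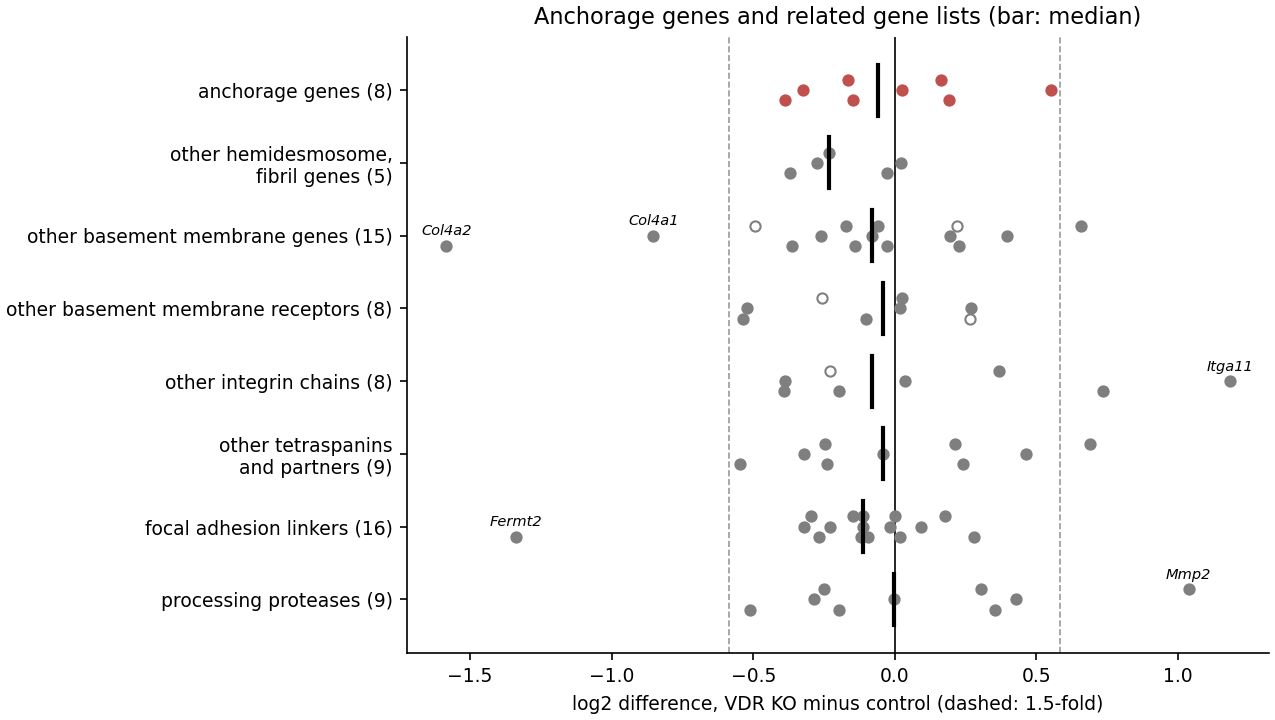
Points are detected genes of each list, placed by the log2 difference, VDR KO minus control, with the number detected in brackets. Filled points are detected on both arrays, open points on 1, black bars are medians and dashed lines mark 1.5-fold. The anchorage genes in red all lie inside the dashed lines, and Col4a2, Fermt2, Itga11 and Mmp2 lie farthest out.

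The preparation read as keratinocyte, with differences in its minor cell types. All 5 basal keratinocyte markers were detected, and all 5 were slightly lower in the knockout pool, with a median of -0.12 and summed signals of 58247 on the VDR knockout array and 62331 on the control array. Of these markers, Krt14 had -0.03 and Krt5 -0.28, and Itgb4 (-0.17) and the brightest Col17a1 probe (-0.15) lay between them. The other Col17a1 probes, at 0.08 and -0.32, lay outside that range. Cd151 (-0.39) and Lamb3 (-0.32) lay below both keratins, Lamb3 only slightly below Krt5. In pooled RNA, fewer basal cells and less RNA per cell cannot be told apart. The 8 bulge and hair germ markers, cells in which α6 integrin is also high, summed to 19691 on the VDR knockout array and 25462 on the control array. Krt15, also a keratin of basal cells, gave 17223 and 22042 of these, so the sums do not compare bulge content. Of the 8 markers, 4 were at least 2-fold lower, Lgr5 and Grem1 among them, beside 1.11% of all detected genes, while Itga6 itself was higher. In the deposited normalized values Tbx1 was 2.34-fold lower, and Cd34, Lgr5 and Grem1 were 1.64-fold, 1.58-fold and 1.70-fold lower. Sox9 was higher (0.19), and the Nfatc1 probes differed in sign, with -0.41 for the brightest. Lgr5, Lhx2 and Grem1 were detected on the control array alone, which sets their direction. Of 6 detected hair shaft and inner root sheath markers, 4 were detected on both arrays, and these 4 were at least 2-fold lower. Among all detected genes 1.11% were at least 2-fold lower. In the deposited normalized values Krt71 kept 2-fold (2.64-fold lower), and Krt27, Krt33a and Krt73 did not. Krt25 and Krt35 were detected on the control array alone, which sets their direction. The hair sums were 1079 on the VDR knockout array and 1999.8 on the control array. They keep the background, which makes up most of the sum on the VDR knockout array. The 5 detected suprabasal markers, of cells that have left the basement membrane, had a median of -0.01. Langerhans and dendritic cell markers were higher by all 4 detected, each on both arrays, with sums of 7389 on the VDR knockout array and 4191 on the control array. The 4 were Cd207, H2-Ab1, H2-Eb1 and Cd74, and the last 3 are not particular to Langerhans cells. Of 4 detected melanocyte markers, only Dct was detected on both arrays, and it was lower (-3.37). Tyrp1, Pmel and Mlana were detected on the control array alone, which sets their direction. The melanocyte sums were 610.8 on the VDR knockout array, which is mostly background, and 1260 on the control array. The part of these cell types in the differences of the anchorage genes was not tested.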

How the data were processed

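The 2 arrays were grouped by the genotype label. The deposited non-normalized values are average bead intensities of 25697 probes, linear and per the file headers, and came from GenomeStudio 2011.1 per the submitters' processing notes. The authors also deposited normalized intensities, whose sorted values match between arrays to within 0.3 units and whose method is not stated. The series value table was identical to these. Deposited detection p-values did not follow the intensities across probes (Spearman's rho -0.0073 on the VDR knockout array and -0.0053 on the control array). They were therefore reassigned by rank of intensity, the smallest to the brightest probe. Using these, normexp in limma 3.58.1 (R 4.3.3) removed the background of the non-normalized intensities with an offset of 16, and log2 values were quantile normalized. The steps were tested on simulated data. The fitted background mean was 140.9 on the VDR knockout array and 143.2 on the control array.

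A probe was detected when its p was under 0.05 on at least 1 array. A gene was represented by its brightest detected probe, and one detected on 1 array was counted by a bound against the lowest detected value of the other. Removing the background widens the folds of dim genes. Symbols were updated through the gene table of GRCm38.p6, except for the members, and 321 probes kept the symbol of the file. The number of arrays limits the precision, so differences carry no p-value. The genes named were all members, Vdr, the hemidesmosome partners Plec, Krt5 and Krt14, and of each related list the members past 1.5-fold and the 3 with the largest difference. Cell type markers, sex-linked genes and the genes marked as named after their values were seen fall outside this rule. The members and lists were chosen with earlier results of these data known. Some genes of the hemidesmosome list are not reported here.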

Additional observations from a re-analysis of the deposited data

How the results depend on the processing

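Differences were recomputed in 7 further ways: without background correction, in the deposited normalized intensities, with an offset of 50, with median scaling, over the mean of all detected probes, with detection p under 0.01 and with no detection filter. In all of these, 0 of the 8 measured anchorage genes reached 1.5-fold, and each stayed within 0.25 of its value, the SD per probe among probes of one gene. The changes of the detection filter left each member's value as it was. The mean over probes could not move the single-probe genes Itga6, Itga3 and Lamb3. Cd151 ranged from -0.46 to -0.37, Lamb3 from -0.34 to -0.31, Itgb4 from -0.19 to -0.15, Col17a1 from -0.15 to -0.11, Itga3 from 0.14 to 0.16 and Itga6 from 0.32 to 0.55. Itgb1 ranged from -0.20 to 0.03 and Dst from -0.03 to 0.19, so that their signs depend on the processing, and the median of the members ranged from -0.16 to -0.05. The number of all genes at least 2-fold higher was 122, against 28 without background correction, 27 in the deposited normalized values and 65 with an offset of 50, and the number lower was 106, against 19, 17 and 47 in the same order. At 1.5-fold, 474 were higher, against 135, 130 and 269, and 392 lower, against 80, 85 and 202. Median scaling turned the balance, with 410 higher and 464 lower at 1.5-fold, and 108 and 122 at 2-fold. Where the background is kept, folds of dim genes shrink: in the deposited normalized values Col4a2, Fermt2, Itga11 and Mmp2 stayed past 1.5-fold, while Col4a1, Lama1, Itgb6 and Igsf8 did not. No paired analysis was possible because each group has 1 array, and for the same reason no replicate could be left out.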
